A study of Homo sapiens with 6 samples.

Results

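Glutathione S-transferases were examined in RNA-seq data from cells labelled as G361, a human melanoma line. This label is set against markers of cell types below. The cells carried a control shRNA (shControl) or an shRNA against DCAF1, the gene that encodes VprBP (shDCAF1). The 10 genes GSTP1, GSTM2, GSTM3, GSTM4, GSTO1, GSTA4, GSTK1, MGST1, MGST2 and MGST3 were taken by their gene names, and all 10 were found among the 21494 genes of the deposited table. Each group has 3 samples, shControl being labelled wild type and shDCAF1 DCAF1 knockdown. Per the methods of the study, a single hairpin was delivered by lentivirus and infected cells were selected with puromycin, so the knockdown rests on 1 shRNA sequence. No source says whether the 3 samples of a group are separate cultures, and p-values therefore measure only the spread between these samples.

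Glutathione S-transferases join the tripeptide glutathione to reactive, electrophilic compounds, which makes drugs, carcinogens and products of lipid oxidation more soluble and ready for export from the cell. The soluble enzymes fall into classes named by Greek letters (pi, mu, alpha, omega and others), the kappa enzyme belongs to mitochondria and peroxisomes, and the microsomal enzymes sit in membranes. In tumours the pi enzyme is known above all for resistance to alkylating drugs and for loss of its transcript in prostate cancer, where its promoter is methylated.

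Total counts per sample ran from 18195926 to 26883925. Mitochondrial genes took 1.96% to 1.99% of them in shControl and 4.10% to 4.48% in shDCAF1, and their part in the results was not tested. In both groups replicates 2 and 3 were closer to each other (chi-square per degree of freedom 2.49 and 2.35) than either was to replicate 1 (17.4 to 29.3). DCAF1 itself had 688, 893 and 884 counts in shControl and 681, 488 and 628 counts in shDCAF1, with no overlap after normalization. The fitted log2 fold change was -0.58 with a standard error (SE) of 0.17 and an adjusted p of 0.0125 in edgeR's quasi-likelihood fit. Permuting the 6 normalized values gave p = 0.1 (exact, two-sided), and no smaller p is possible with 3 against 3. Without shDCAF1 replicate 1 this value was -0.82, and with scaling by library size alone it was -0.37 (adjusted p = 0.0851 from edgeR). Besides G361 as the cell line, the labels name LD611 as the source, so markers of several cell types were read out. Of 8 melanocyte markers 4 had a row in the table, which lists no gene with under 10 counts over all samples. SOX10, TYR, DCT and S100B had none. MLANA had 1 to 5 counts in every sample, TYRP1 had 0 to 4, PMEL had 28 to 46 and MITF had 154 to 312. The 4 with a row summed to 8.46 to 9.85 CPM (counts scaled to library size) in shControl and 11.9 to 15.2 in shDCAF1. Of 8 urothelial or epithelial markers 7 had a row, and they summed to 5250 to 5902 and 3453 to 4987 CPM. Pigment cell markers were thus absent or low in both groups, MITF being the highest of them, and keratins were abundant. These markers do not bear out the melanoma label. The epithelial markers moved in opposite directions. GATA3, a urothelial transcription factor, had 7, 1 and 0 counts in shControl and 1580, 1334 and 1873 in shDCAF1, the uroplakin UPK1B had 500, 641 and 709 and then 0 in every shDCAF1 sample, KRT5 was 18.6-fold lower and KRT19 2.02-fold higher. Their part in the results was not tested. The sums were 30.5 to 32.7 and 22.5 to 29.4 CPM for 3 of 5 fibroblast markers, 25.7 to 29.1 and 1.42 to 1.90 for 3 endothelial markers, 27.8 to 43.7 and 0.0550 to 0.254 for 1 of 3 immune markers (CD68), and at most 0.149 for 1 of 3 hepatocyte markers. Whether the groups differ in more than the shRNA cannot be told apart from the knockdown in this design, and in bulk RNA neither can fewer expressing cells and less RNA per cell.

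The members at the extremes of the comparison were GSTP1, which fell to a few counts in shDCAF1, and GSTM3, which rose most. Their promoters are shown because these genes had the largest changes among the members and their promoters are very unlike in base composition. Each run below holds the 250 bases before the RefSeq transcript start on GRCh38.p14, read on the strand of the gene. The GSTP1 run is chr11:67583562-67583811 (plus strand) and the GSTM3 run is chr1:109741039-109741288 (minus strand). Capitals mark 3 motifs searched on both strands, namely TGACNNNGC (the core of the antioxidant response element, which NRF2 binds), TGACTCA (the AP-1 motif, which can lie inside the first) and GGGCGG (the GC box).
GSTP1: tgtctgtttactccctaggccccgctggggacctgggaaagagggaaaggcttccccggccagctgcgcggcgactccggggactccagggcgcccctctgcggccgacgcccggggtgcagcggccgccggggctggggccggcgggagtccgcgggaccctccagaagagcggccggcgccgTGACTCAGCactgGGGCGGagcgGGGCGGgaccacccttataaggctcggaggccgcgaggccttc
GSTM3: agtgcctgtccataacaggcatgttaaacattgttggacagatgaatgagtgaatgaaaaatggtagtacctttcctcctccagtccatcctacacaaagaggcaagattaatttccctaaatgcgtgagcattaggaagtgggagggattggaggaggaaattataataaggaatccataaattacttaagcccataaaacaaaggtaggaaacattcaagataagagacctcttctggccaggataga
In GSTP1 the matches TGACTCAGC and TGACTCA begin at the same base, 66 bases before the start, and are followed by GGGCGG at 53 and 43 bases before it. None of the 3 motifs was found in the GSTM3 window. With the first 50 transcribed bases included, the GSTP1 window held 36 CG pairs and was 74.0% G and C, and the GSTM3 window held 1 CG pair and was 41.3% G and C, against medians of 14 CG pairs and 58.7% over 35116 such windows. DNA methylation was not measured here.
RefSeq held 11 windows for 9 members, with 3 for MGST1 and none for MGST2. TGACNNNGC was present in 4 of the 11 (GSTP1, GSTO1, GSTA4 and 1 of MGST1, there 30 bases after the start), against 13.3% of all windows, TGACTCA in that of GSTP1 alone, against 4.95%, and GGGCGG in 8, against 45.0%. Windows of MGST1 overlap in part and share a GGGCGG match, and by gene GGGCGG was found in 7 of the 9 members. The 4 genes with TGACNNNGC include 2 that fell (GSTP1 and GSTO1) and 2 that rose (GSTA4 and MGST1).

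The groups were compared to ask how these genes respond to depletion of VprBP. Values are normalized counts, that is counts scaled by upper quartile factors, and genes were called where the fold change exceeded 2 and the p-value, adjusted over all tested genes by Benjamini and Hochberg, was under 0.05. All 10 members passed the filter on low counts. Of them 4 were called up (GSTM3, MGST1, MGST2 and GSTA4), against 24.5% of the 16756 genes tested, and 3 were called down (GSTP1, GSTO1 and GSTM2), against 22.0%. The 7 called of 10 stand beside 46.4% of all genes called in either direction. The remaining 3, GSTK1, GSTM4 and MGST3, had an adjusted p under 0.05 and a change of less than 2-fold. The 3 values per group did not overlap in any member, which was also so for 79.5% of all genes tested. The median absolute log2 fold change was 1.2 over the members and 0.92 over all genes, and the signed medians were 0.65 and 0.08.

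**Figure D1:**
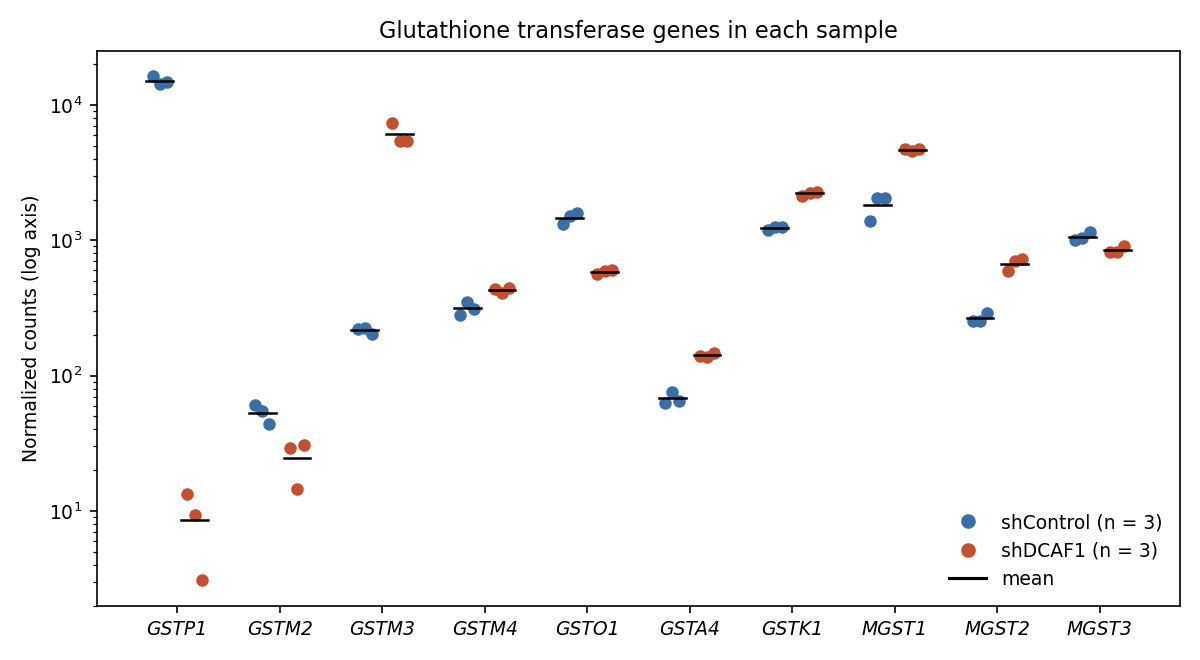
Normalized counts of the 10 genes (log axis) in the 3 shControl and the 3 shDCAF1 samples, each point being a sample and each line a group mean. GSTP1 drops from a mean of 15085 to 8.61, GSTM3 climbs from 217 to 6062, and the remaining genes move by less than 3-fold.

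GSTP1, the pi class enzyme, which also binds and restrains the stress kinase JNK, was nearly absent from the shDCAF1 samples. It had 14132, 13039 and 15505 counts in shControl replicates 1, 2 and 3 and 12, 9 and 4 counts in the shDCAF1 replicates. Every shDCAF1 sample thus kept a few reads, all above the floor of 3 counts taken as detection. After normalization these were 15085 ± 1152 and 8.61 ± 5.21 (SD, n = 3), which left 0.0570% of the shControl level. The log2 fold change was -10.86 (SE 0.25, adjusted p = 1.11e-09 from edgeR), the 187th most negative of the genes tested. GSTP1 (ENSG00000084207.18) occupies chr11:67583742-67586656 of hg38, plus strand, and overlaps no other gene in GENCODE 44.

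The mu class genes, which conjugate a wide range of aromatic and lipid-derived electrophiles, lie side by side on chromosome 1 and moved unequally. GSTM3 (109733932 to 109741038, minus strand) had 221, 224 and 205 normalized counts in shControl and 7309, 5416 and 5463 in shDCAF1. The lowest shDCAF1 sample was far above the highest shControl sample, and replicate 1 was the highest of its group. The means were 217 ± 10.4 and 6062 ± 1080 (SD, n = 3), a 28-fold difference and a log2 fold change of 4.81 (SE 0.15, adjusted p = 4.82e-09 from edgeR), which ranked 592nd among all genes tested from the most positive. GSTM4 (109656099 to 109674836, plus strand) had 283, 349 and 310 normalized counts in shControl and 439, 408 and 448 in shDCAF1. These groups lay close together without overlapping, at a log2 fold change of 0.46 (SE 0.12, adjusted p = 0.00590 from edgeR), and GSTM4 was not called.
GSTM2 (109668022 to 109709551, plus strand) was the least abundant member in shControl. It had 60.3, 54.4 and 43.6 normalized counts in shControl and 29, 14.5 and 30.7 in shDCAF1. It was called down at a log2 fold change of -1.07 (SE 0.32, adjusted p = 0.0123 from edgeR), close to the 2-fold limit. The change was -0.82 without shDCAF1 replicate 2, -0.97 without shControl replicate 1 and -0.86 with library size alone, and GSTM2 was not called in these fits. In the deposited coordinates GSTM2 and GSTM4 share 6815 bases on the same strand. GSTM2 also shares 559 exon bases with GSTM1 in GENCODE 44, so reads between these related genes may have been split. Fractional values do not measure how many reads were shared, so splitting was not tested. Among the members they ran from 0 of 6 for GSTA4 to 4 of 6 for GSTM2 and MGST1. GSTP1, which overlaps no other gene in GENCODE 44, had 3 of 6, and 59.4% of all deposited values are whole. Within each sample the log2 ratio of GSTM3 to GSTM2 counts, which no scaling can move, was 1.88, 2.04 and 2.23 in shControl and 7.98, 8.54 and 7.48 in shDCAF1.

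GSTO1, the omega class enzyme, which reduces dehydroascorbate and glutathionylated proteins more than it conjugates, fell. It had 1327, 1508 and 1581 normalized counts in shControl and 563, 592 and 601 in shDCAF1. The shDCAF1 samples lay close together, at 39.8% of the shControl mean, a log2 fold change of -1.33 (SE 0.10, adjusted p = 1.45e-06 from edgeR).
GSTA4, an alpha class enzyme that clears the lipid peroxidation product hydroxynonenal, rose from 62.6, 76.1 and 65.4 to 141, 138 and 146 normalized counts. The log2 fold change was 1.06 (SE 0.17, adjusted p = 0.000314 from edgeR), again near the limit, and it was 0.96 with TMM factors and 0.94 with DESeq2, where GSTA4 was not called.
GSTK1, the kappa class enzyme, had 1189, 1245 and 1264 normalized counts in shControl and 2116, 2250 and 2288 in shDCAF1. Its log2 fold change of 0.85 (SE 0.08, adjusted p = 6.60e-06 from edgeR) stayed under 2-fold, and with library size alone it was 1.06 and called.

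The microsomal members are membrane proteins of the MAPEG family, of which MGST2 can also make leukotriene C4. MGST1 had 1382, 2064 and 2069 normalized counts in shControl and 4698, 4594 and 4706 in shDCAF1. shControl replicate 1 lay well below the other shControl samples, whereas the shDCAF1 samples hardly differed. The log2 fold change was 1.34 (SE 0.14, adjusted p = 1.81e-05 from edgeR), and it was 1.17 without shControl replicate 1.
MGST2 had 253, 254 and 291 normalized counts in shControl and 592, 701 and 727 in shDCAF1, with a log2 fold change of 1.34 (SE 0.12, adjusted p = 6.65e-06 from edgeR). MGST2 shares 252 exon bases with MAML3 on the opposite strand, and whether counting used strand is not given in the sources used here.
MGST3 went the other way by a small amount, from 998, 1041 and 1142 to 815, 818 and 915 normalized counts, with a log2 fold change of -0.32 (SE 0.10, adjusted p = 0.0138 from edgeR). With library size alone it was -0.11 (adjusted p = 0.343 from edgeR). The log2 ratio of MGST1 to MGST3 counts was 0.77 ± 0.27 in shControl and 2.46 ± 0.09 in shDCAF1 (SD, n = 3), and that of MGST2 to MGST3 was -2 ± 0.03 and -0.34 ± 0.12, so that both moved by about the same amount, 1.69 and 1.66.

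**Figure D2:**
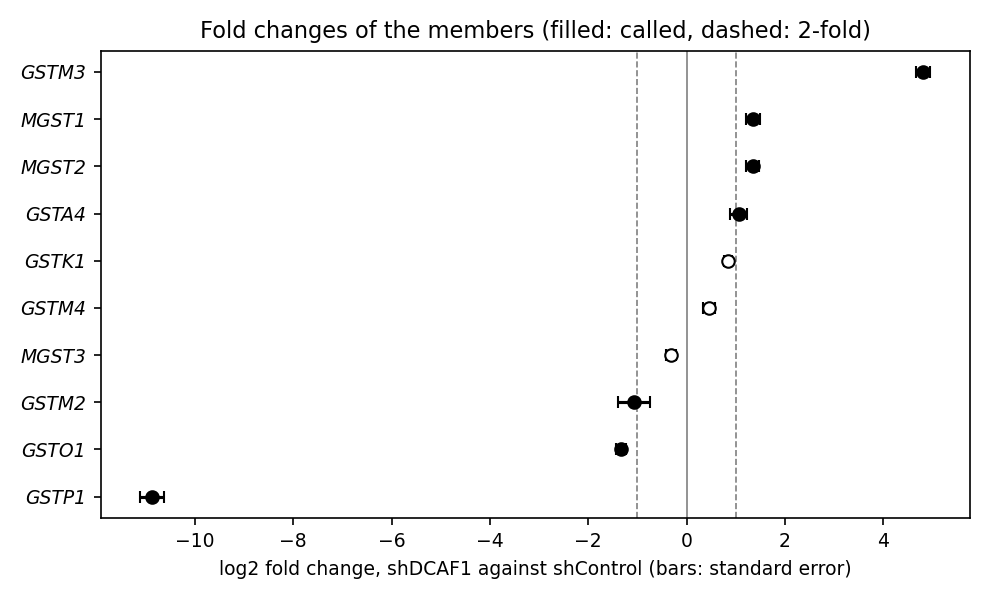
Log2 fold changes of the 10 genes in shDCAF1 against shControl with their standard errors, filled where the gene was called and open where it was not, with dashed lines at a 2-fold change. GSTP1 at -10.86 and GSTM3 at 4.81 stand apart from the other members, which lie between -1.33 and 1.34.

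To compare genes with each other, counts were divided by kilobases of annotated exon and scaled to the same total in every sample, as for TPM. On this length-scaled level the members ranked differently in the groups. In shControl GSTP1 came first at 1504 ± 114, followed by GSTO1 at 153 ± 13.5, GSTK1 at 51.4 ± 1.59 and MGST1 at 43.4 ± 9.35 (SD, n = 3), and GSTM2 came last at 1.02 ± 0.16. GSTK1 and MGST1 differed by less than the spread of MGST1, but with the longest transcript as length MGST1 was the higher, at 108 ± 23.1 against 57.7 ± 1.73. In shDCAF1 GSTM3 came first at 244 ± 47.9, followed by MGST1 at 120 ± 2.75, GSTK1 at 100.3 ± 2.36 and GSTO1 at 66.0 ± 1.14, while GSTP1 and GSTM2 were last at 0.938 ± 0.579 and 0.517 ± 0.185 and differed by less than their spread. The order at the top of shDCAF1 also depended on the length used, since with the longest transcript MGST1 stood at 305 ± 6.79 and GSTM3 at 207 ± 40.5.
Summed over the 10 genes, the level was 1814 ± 88.7 in shControl and 620 ± 44.3 in shDCAF1 (SD, n = 3). With the longest transcript as length these sums were 1557 ± 46.4 and 826 ± 38.6. Without GSTP1 the order reversed, at 311 ± 27.1 and 619 ± 43.9, of which GSTM3 alone held 8.02 ± 0.41 and 244 ± 47.9. GSTP1 made up 82.8% ± 2.22 of the sum in shControl and 0.148% ± 0.085 in shDCAF1. The mu class went from 1.07% ± 0.12 to 41.7% ± 4.64, nearly all of it GSTM3, the microsomal genes from 4.51% ± 0.81 to 29.2% ± 2.20, and kappa from 2.84% ± 0.22 to 16.3% ± 1.48. Omega made up 8.47% ± 1.09 and 10.7% ± 0.91, and alpha stayed smallest or next to smallest at 0.315% ± 0.048 and 2.08% ± 0.13. The class order in shDCAF1 turned with the longest transcript, where the microsomal genes made up 48.1% ± 2.05 and the mu class 26.9% ± 3.62. GSTP1 then made up 72.5% ± 3.47 in shControl, and omega went from 11.3% ± 1.24 to 9.48% ± 0.60 instead of upward.

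**Figure D3:**
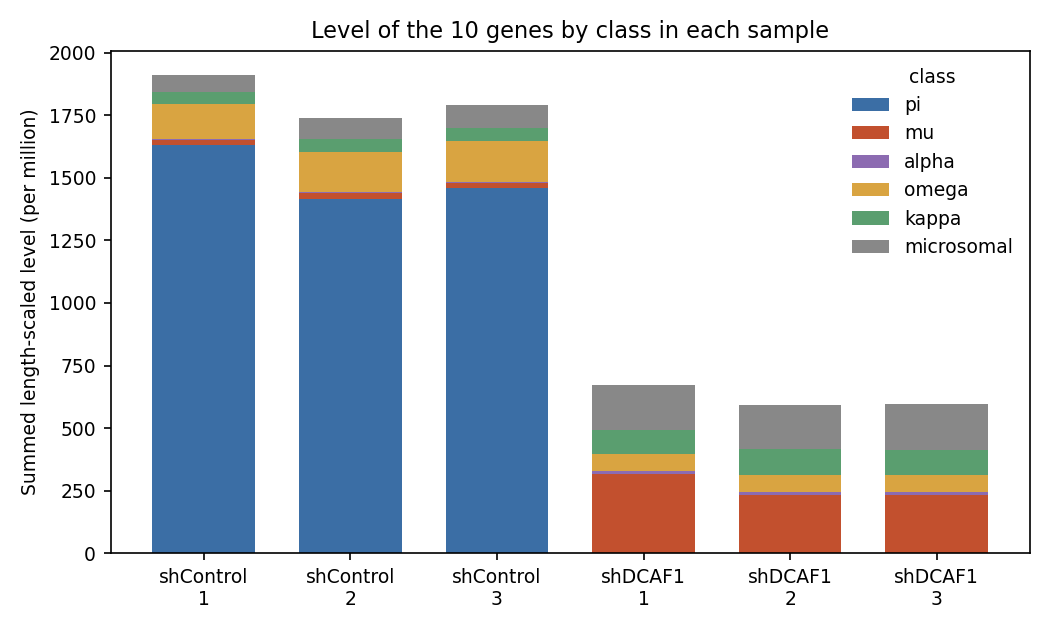
Length-scaled levels (counts per kilobase of exon, scaled to the same total in each sample) of the 10 genes summed by class in each sample, as bars stacked from 0. The pi class (GSTP1) fills most of each shControl bar and cannot be seen in the shDCAF1 bars, which reach a mean of 620 against 1814 and are made up mostly of the mu, microsomal and kappa classes. Levels use the summed exon length of each gene.

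The chromosome neighbours of the members were read out to see whether the genes next in order moved in the same way. For each member these were the 3 nearest protein-coding genes tested on either side, by the lower coordinate of the gene. Of 48 distinct neighbours that are not members, 10 were called up and 14 down, which is 50% and close to the 46.4% of all genes. The farthest lay 116 kb from GSTP1, 254 to 317 kb from the mu genes, 268 kb from GSTO1, 389 kb from GSTK1, 616 kb from GSTA4, 723 kb from MGST2 and 4464 and 2841 kb from MGST1 and MGST3. Around GSTP1, no neighbour was called down and 1 was called up, against 22.0% and 24.5% of all genes tested. The log2 fold changes of the 6 ran from 0.06 to 2.34, the highest being NUDT8, a nudix hydrolase, which was called up.
Around GSTM3 the picture was mixed. GSTM2 was called down, as was CSF1, a macrophage growth factor, at -2.90, and 4 of the 6 were not called. AMIGO1, a neighbour of GSTM4 but not of GSTM3, lies 152 kb before GSTM4 and was called up at 3.07. AMPD2 and GNAI3 lie nearer to GSTM4 and were not called. GSTO1 lay among genes that fell, with 5 of its 6 neighbours called down, against 22.0% of all genes tested. No other member had as many called down around it. The 5 were GSTO2 at -5.06, ITPRIP at -1.78, SFR1 at -1.36, CFAP58 at -1.31 and COL17A1, a hemidesmosome collagen. CFAP58 had only 13, 18 and 10 counts in shControl and 9, 4 and 5 in shDCAF1, and its groups overlapped. COL17A1 had 29204, 25132 and 28462 counts in shControl and 1, 2 and 3 in shDCAF1. Beside GSTA4 CILK1 and FBXO9 were called up at 1.37 and 1.12 and TRAM2 down at -1.33, and beside MGST2 MAML3 and CLGN were called up at 1.27 and 2.86. Around GSTK1 EPHB6, TMEM139 and CASP2 were called up (1.59, 2.73 and 1.17) and KEL and CLCN1 down (-3.52 for KEL, and from 11, 18 and 27 to 0, 1 and 0 counts for CLCN1). Around MGST1 the tested genes were sparse. EPS8, 727 kb before it, was called down at -1.31, PLEKHA5 and AEBP2, 2783 and 3057 kb after it, at -4.43 and -1.56, and SLCO1B3, 4464 kb after it, had 0 counts in every shDCAF1 sample and was at least 128-fold lower against a floor of 3 counts per sample. NUF2, a kinetochore protein, was called down at -1.35 and lies 2365 kb before MGST3.

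**Figure D4:**
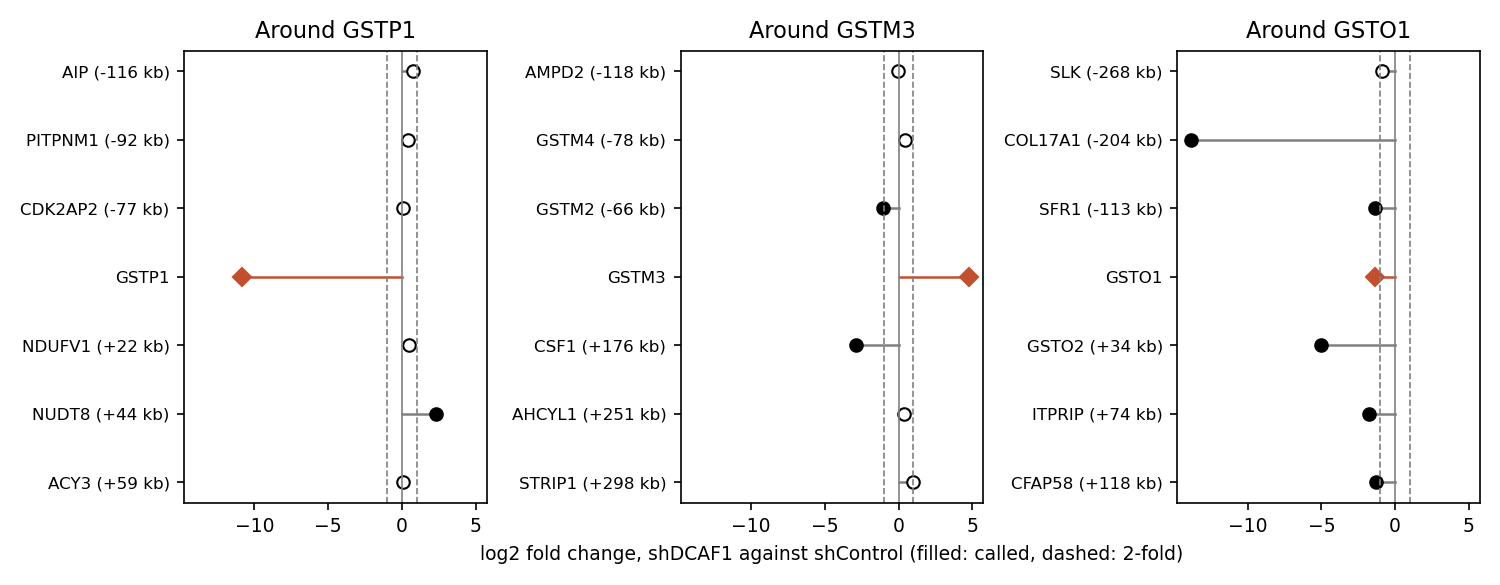
Log2 fold changes of GSTP1, GSTM3 and GSTO1 (diamonds) and of the 3 nearest tested protein-coding genes on either side (circles, filled where called), ordered by position with the distance between gene starts in kb and dashed lines at 2-fold. All 6 genes around GSTP1 lie above 0, but only NUDT8 was called, and CDK2AP2 and ACY3 lie at 0.06 and 0.09 with overlapping groups. All 6 around GSTO1 lie below 0. The fitted value of COL17A1 depends on the prior count, since it had at most 3 counts per sample in shDCAF1.

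Other enzymes of the family were taken from a fixed list of 17 genes. Of these 8 had a row and 7 were tested, with 0 called up and 4 down by edgeR, against 24.5% and 22.0% of all genes tested. Under the alternatives 0 or 1 were called up and 2 to 5 down. GSTO2, the second omega enzyme, fell to 10.5 ± 3.27 normalized counts from 360 ± 25.6 (SD, n = 3), which is -5.06 on the log2 scale (adjusted p = 3.76e-08 from edgeR), and PTGES, a MAPEG member that makes prostaglandin E, fell from 9409 ± 105 to 1586 ± 444 (-2.57, adjusted p = 1.24e-06). The theta enzyme GSTT2B fell from 90.1 ± 23 to 44.3 ± 11 (-1.01, adjusted p = 0.00677 from edgeR), close to the fold limit. Its near-identical copy GSTT2, with 12, 11 and 24 counts in shControl and 0, 2 and 0 in shDCAF1, was called down as well. Reads of GSTT2B and GSTT2 may have been split between the copies. GSTZ1, the zeta enzyme of tyrosine breakdown, had a log2 fold change of 0.39 (adjusted p = 0.00423), LTC4S 0.85 (adjusted p = 0.0179) and GSTCD 0.06 (adjusted p = 0.698), and none of these was called. ALOX5AP had 9, 14 and 12 counts in shControl and 0, 1 and 0 in shDCAF1 and was not tested. GSTA1, GSTA2, GSTA3, GSTA5, GSTM1, GSTM5, GSTT1, GSTT4 and HPGDS had no row and are not analysed here.

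Genes that supply glutathione to these enzymes moved in both directions. Of 17 genes of synthesis and recycling, all tested, 5 were called up and 4 down, which is 52.9% and near the 46.4% of all genes, with a median log2 fold change of 0.16 against 0.08 over all genes. Both chains of the cystine importer fell, SLC7A11 from 702 ± 176 to 281 ± 11.9 normalized counts (SD, n = 3) and SLC3A2 from 17036 ± 213 to 5715 ± 486, at log2 fold changes of -1.32 and -1.58 (adjusted p = 6.58e-05 and 1.86e-07 from edgeR). CBS, which starts the making of cysteine from homocysteine, had 9, 2 and 1 counts in shControl and 515, 500 and 890 in shDCAF1, a log2 fold change of 7.08 (adjusted p = 1.35e-07). Also called were PGD, which makes NADPH in the pentose phosphate pathway (1.45), CHAC2 and GGCT, which degrade glutathione and its gamma-glutamyl products (1.97 and 1.22), the malic enzyme ME1 (-1.27) and OPLAH, which opens oxoproline (-3.69).
Genes of the steps that carry conjugates onward were called about as often as other genes. Of 23 genes of conjugate export and mercapturate formation 18 were tested, with 4 called up and 4 down, or 44.4% against 46.4% of all genes, and a median log2 fold change of 0.10. Among the pumps, ABCC1 fell from 2918 ± 104 to 1148 ± 38.2 normalized counts (-1.35, adjusted p = 2.44e-07 from edgeR), ABCC4 from 866 ± 31.6 to 80.5 ± 27.2 (-3.40, adjusted p = 3.27e-07), and ABCG2 from 306 ± 11.1 to 0 counts in every shDCAF1 sample, at least 105-fold lower. Of the gamma-glutamyl transferases and dipeptidases, which trim the conjugates, GGT6 rose from 103 ± 11.2 to 1535 ± 255 (3.89, adjusted p = 3.06e-08), GGT5 from 12.7 ± 6.12 to 224 ± 31.3 (4.16, adjusted p = 8.69e-07) and CNDP2 from 420 ± 64.4 to 3583 ± 480 (3.09, adjusted p = 5.64e-08). ANPEP, the fourth gene called up and named after its values were seen, had 1 count in each shControl sample and 17, 16 and 26 in shDCAF1. GGT1 fell by 1.55 on the log2 scale (adjusted p = 0.00663), with 193, 63 and 178 counts in shControl and 29, 63 and 75 in shDCAF1.
Peroxidases, which spend glutathione or thioredoxin on peroxides, and other thiol enzymes mostly stayed under the fold limit. Of 21 genes 20 were tested, 1 was called up and 5 down, or 30% against 46.4% of all genes, and the median log2 fold change was -0.30. Without shDCAF1 replicate 1, 8 were called down. PRDX2 rose from 1544 ± 78.7 to 6330 ± 591 normalized counts (2.04, adjusted p = 6.25e-08 from edgeR). GPX1, GPX2, PRDX4 and TXNRD1 fell, at -1.37, -3.70, -1.05 and -1.42. The fifth, GPX7, was named after its values were seen and had 32, 53 and 66 counts in shControl and 0, 2 and 0 in shDCAF1.

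**Figure D5:**
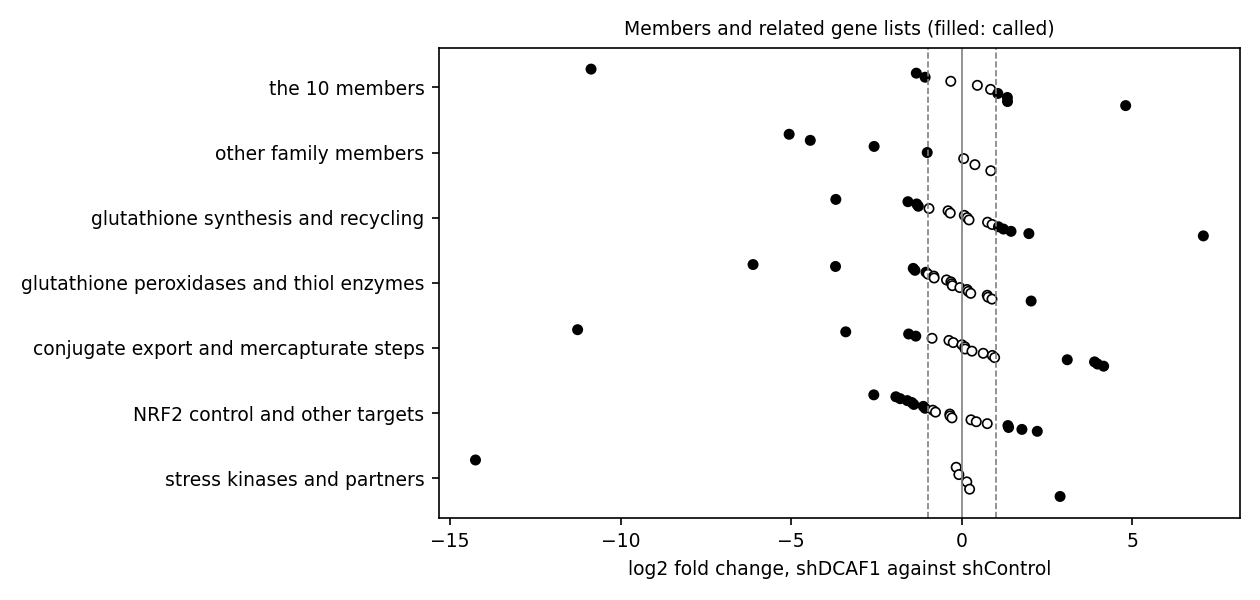
Log2 fold changes of the 10 members and of the tested genes of 6 related lists, each point being a gene, filled where called, with dashed lines at 2-fold. Points fall on both sides of 0 in each list, from 7.08 for CBS down to genes with 0 counts in shDCAF1, whose fitted values (ABCG2 and TXNIP, below -10) depend on the prior count.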

How the data were processed

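RNA was measured in 6 samples, 3 per group, assigned from their titles. Per the methods of the study, single-end reads were aligned with STAR to hg38 and quantified per gene in Partek Flow. The authors deposited estimated counts, unscaled and not pooled, of which 59.4% are whole, and no gene has a sum under 10. The labels name a SMARTER kit and the methods a stranded KAPA kit. Values were rounded and tested in edgeR 4.0.16 (R 4.3.3) by the quasi-likelihood test with upper quartile factors (quantile 0.75) and filterByExpr (minimum count 10), in place of Partek's Gene Specific Algorithm, with no replicate block. The design assumed counts. The standard error was taken as the ratio of the log2 fold change to the square root of F. The floor of 3 counts is 2.30 to 3.48 normalized counts per sample and, like the depth, covers counting error only. Exon lengths and overlaps are from GENCODE 44, whose IDs equal those of the table, version included, for 88.2% of genes.

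The members and gene lists were chosen with earlier results of these data known. Named genes are the members, the other family members, DCAF1, called neighbours and, per list, at most 4 called genes in each direction whose higher group averaged 100 normalized counts or more. 1 gene that this rule would name is not reported here. Alternatives were TMM, library size alone, DESeq2 1.42.0, voom in limma 3.58.1, no or a stricter filter, a replicate block, glmTreat, leaving out each sample and, added after the data were seen, summing replicates 2 and 3. The edgeR, DESeq2 and voom fits were tested on simulated counts in which a small share of genes changed. That does not test the scaling where as many genes differ as here.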

Additional observations from a re-analysis of the deposited data

How the results depend on the processing

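Under 15 alternatives (14 for GSTP1) no member changed direction, and 141 of 149 member values kept their call. The 8 changes concern GSTM2, GSTA4 and GSTK1. GSTM2 and GSTA4 were also not called by glmTreat, which tests against a 2-fold change (adjusted p = 0.419 and 0.364), and GSTM2 had log2 fold changes from -1.28 to -0.82 when a sample was left out. The log2 fold change of GSTP1 ran from -11.33 to -10.37 and that of GSTM3 from 4.65 to 5.02 over all alternatives. GSTP1 could not be fitted with at least 10 counts required in every sample, a filter that left 4690 of 13103 genes called. No filter gave 9575 of 21494 and glmTreat 6263. Over all genes tested, the median moved from 0.08 to 0.29 with library size alone and to -0.04 with DESeq2, and member values moved with it. Adjusted p ran from 0.000188 to 1 for DCAF1 and from 0.000166 to 1 for MGST3, the highest being from glmTreat.

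With a replicate block the counts of called genes were 7686 in all, 4 members up and 3 down, and no member changed its call. Samples sharing a number had deviations from the group means that correlated at -0.144, -0.028 and -0.107. Those with different numbers correlated at -0.111 to 0.144. With 3 samples per group the deviations depend on each other, so this check cannot tell whether the numbers pair the samples. With replicates 2 and 3 summed, 4 members were called up and 3 down. In that fit DCAF1 had a log2 fold change of -0.46 (adjusted p = 0.0839 from edgeR) and MGST3 one of -0.32 (adjusted p = 0.106 from edgeR). Neither stayed under 0.05, whereas the other members did.

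Depth limits GSTM2 and GSTP1 in shDCAF1 most, where 14 to 40 and 4 to 12 counts were seen.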

Other observations

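NRF2, the transcription factor that responds to electrophiles, and its partners and other targets formed a further list of 20 genes. Of these 4 were called up and 8 down in edgeR, against 24.5% and 22.0% of all genes tested. That is 60% called, against 46.4% of all genes. NFE2L2, which encodes NRF2, had a log2 fold change of -0.35 (adjusted p = 0.00141 from edgeR) and was not called. NQO1 at 0.27 was not called either, and BACH1 was called down at -1.12. NFE2L2, NQO1 and BACH1 were named after their values were seen. NFE2L1, a relative of NRF2, fell from 10311 ± 412 to 2708 ± 36.0 normalized counts (SD, n = 3), while KEAP1 and CUL3, which mark NRF2 for degradation, rose from 1499 ± 65.1 to 5095 ± 461 and from 1099 ± 93.5 to 2814 ± 267. HMOX1, which breaks down heme, rose from 152 ± 2.86 to 707 ± 126, and AKR1C2 from 1227 ± 270 to 3180 ± 890, and it has near-identical copies, so that its value is uncertain. FTL, a ferritin chain, fell from 19735 ± 703 to 3308 ± 660, and MAFF and ABHD4 fell by 1.80 and 1.59 on the log2 scale.

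Of 6 stress kinases and related genes, 1 was called up and 1 down in edgeR, or 33.3% against 46.4% of all genes. MAP3K5, the kinase ASK1, rose from 219 ± 7.15 to 1613 ± 125 normalized counts (adjusted p = 1.37e-08 from edgeR). TXNIP, a thioredoxin inhibitor, went from 3277, 1622 and 1853 counts in shControl to 0 in every shDCAF1 sample, at least 835-fold lower. The other 4 were not called. MAPK8, which encodes the JNK that GSTP1 binds and was chosen after its values were seen, had a log2 fold change of -0.08 (adjusted p = 0.440 from edgeR).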
